A study of Rattus norvegicus with 12 samples.

Results

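Receptors for small peptides sit on the smooth muscle, nerves, vessels and urothelium of the urinary bladder and set the tone of the organ beside the classical transmitters. The set examined here was 10 receptor genes: Tacr1 and Tacr2 (tachykinins), Bdkrb1 and Bdkrb2 (kinins), Ednra and Ednrb (endothelins), Agtr1a (angiotensin II), Oxtr (oxytocin), Vipr2 (vasoactive intestinal peptide and PACAP) and Npy1r (neuropeptide Y). They were chosen by name as known peptide receptors, with earlier results of these data known. A receptor was counted as measured where a probe set carried its symbol and no other, which held for 7 of the 10, among 18166 genes on the array. Tacr2, Ednra and Ednrb had no such probe set and were not analysed here.

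The tissue was urinary bladder of female Sprague Dawley rats aged about 3 months. The 6 sham samples followed surgery alone, and the 6 denervated samples followed surgery with freezing of the pelvic ganglia on both sides, which is meant to remove the bladder's nerve supply, and were taken 10 days later. The time from sham surgery to sampling is not stated here. Total RNA was read on 1 array per sample, 12 in all, and values are log2 expression, so a difference of 1 is a doubling. The labels do not state whether the arrays are from separate animals, so the p-values measure the spread between these samples.

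Most receptors for peptides on muscle couple to G proteins that either release stored calcium and contract the cell or raise cyclic AMP and relax it. The tachykinin, kinin, angiotensin, endothelin and oxytocin receptors belong mainly to the first kind and Vipr2 to the second, while Npy1r lowers cyclic AMP. Tachykinins, vasoactive intestinal peptide and neuropeptide Y are carried by the bladder's own nerves, whereas kinins and angiotensin are cut from precursors in blood and tissue and endothelin comes from vessels and epithelium.

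In all, 1 of the 7 measured receptors rose, Bdkrb1, and 0 fell, with a limma adjusted p under 0.05 taken as the threshold for a call. Over all 18166 genes 28.7% were called, 11.9% higher and 16.9% lower, so a share of 1 in 7 lay near or below that of the whole array. At an unadjusted p under 0.05 there were 4 receptors, Bdkrb1 and Vipr2 higher and Tacr1 and Agtr1a lower, where 38.9% of all genes passed. By an exact rank-sum test with Benjamini-Hochberg adjustment 0 receptors were called in either direction, against 22.3% of all genes. The differences of the 7 ran from -0.51 to 0.32, with a median of -0.11, against a median of -0.04 over all genes. For 0 of the 7 did the 6 denervated values lie wholly outside the 6 sham values, which was the case for 13.3% of all genes.

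**Figure D1:**
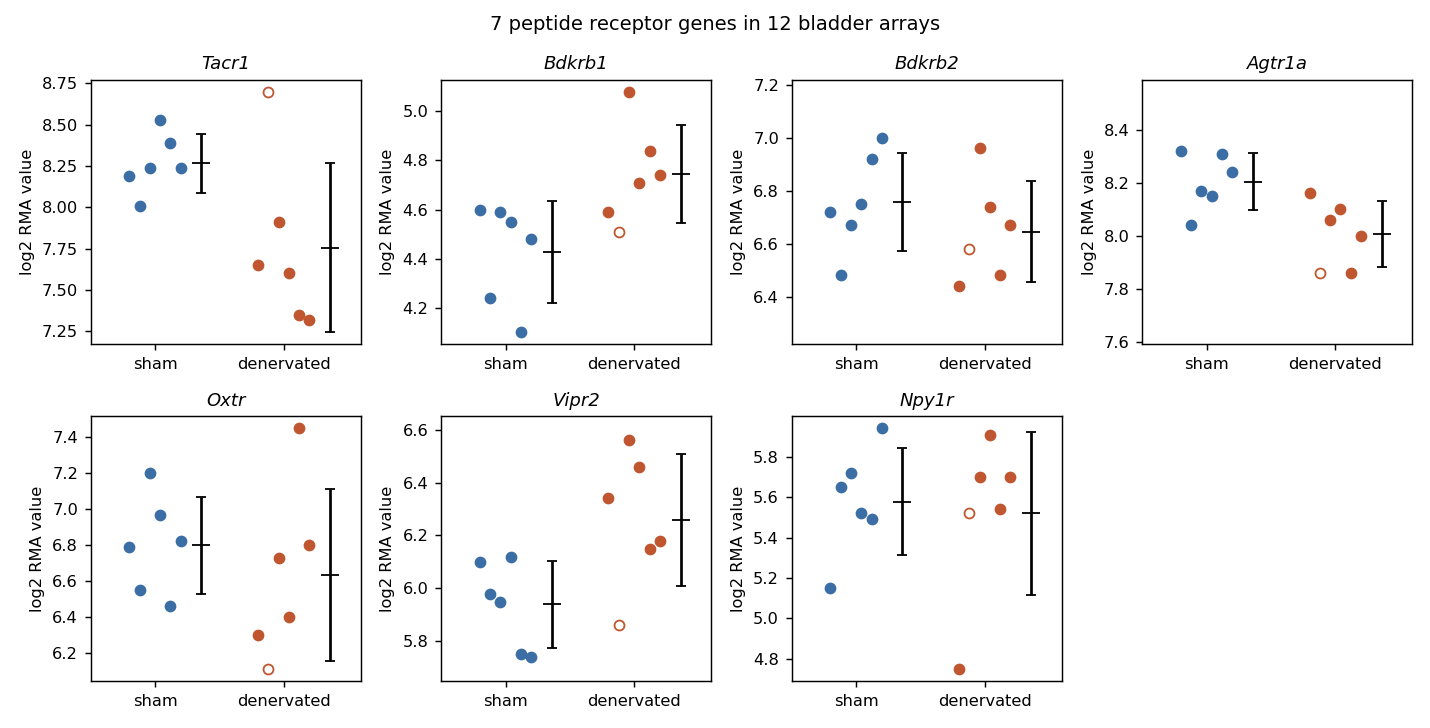
Log2 RMA values (vertical axis, each panel with its own range) of the 7 measured receptor genes in 6 sham and 6 denervated arrays, with 1 point per array and the mean ± SD beside each group. The open circle is denervated replicate 2, which for Tacr1 stood at 8.70, above all 6 sham arrays, while the other 5 denervated arrays stood below them.

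Denervated replicate 2 differed from the rest of its group across the genome. On the first principal component of all genes, which held 58.0% of the variance, it scored -5.8, whereas its 5 group mates scored 25.9 to 42.5 and the sham arrays -30.2 to -22.5. The labels describe the cells as nearly all smooth muscle, and the 9 measured smooth muscle markers were bright, with a mean of 11.43 to 11.63 in sham arrays. The 9 measured urothelial markers were bright too (10.95 to 11.20 in sham arrays), so urothelial RNA was part of the sample. After denervation 6 smooth muscle markers fell and 1 rose, 9 urothelial markers fell, 5 of 6 Schwann cell markers fell and 8 of 9 macrophage markers rose. Over all genes 11.9% were called higher and 16.9% lower. Of 9 neuron markers 3 fell, 1 rose and 5 were not called. Fibroblast markers rose in 5 of 8 and lymphocyte markers in 4 of 7, while of 6 pericyte markers 2 rose and 2 fell. In whole tissue, fewer cells of a type and less RNA per cell cannot be told apart.

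Tacr1 encodes the NK1 receptor, which binds substance P best among the tachykinins. In sham bladders it ranged from 8.01 to 8.53 around a median of 8.24. In denervated bladders the lowest value was 7.32, the median 7.62 and the highest 8.70. The groups overlapped through a single array: 5 denervated arrays, at 7.32 to 7.91, lay below all 6 sham arrays, and denervated replicate 2 had the highest Tacr1 value of the 12. The difference was -0.51 ± 0.20 (SE, n = 6 per group, adjusted p = 0.0664), with a 95% interval from -0.94 to -0.09, and it was not called. Without denervated replicate 2 Tacr1 fell by 0.70 (adjusted p = 0.000498), where 34.5% of all genes were called. Leaving out any of the other 11 arrays left it uncalled. In the same array the mean over the smooth muscle markers stood at -0.10 relative to that of the sham group, where the other 5 denervated arrays gave -0.77 to -0.29. That of the Schwann cell markers stood at -0.50, against -1.46 to -1.18, and the part of these cells in the Tacr1 values was not tested.

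The DNA upstream of Tacr1 and of Bdkrb1 is shown because these were the receptor with the widest change and the one called. Both windows are from RefSeq on build GRCr8, forward strand, ending at the last base before the annotated gene, and the coordinates are chr4:116478367-116478616 for Tacr1 and chr6:130275436-130275630 for Bdkrb1. The start of the Bdkrb1 window overlaps an annotated long noncoding RNA. Capitals mark TATAAA, the core of a TATA box, and TGACG, part of a cyclic AMP response element, searched on both strands.
Tacr1: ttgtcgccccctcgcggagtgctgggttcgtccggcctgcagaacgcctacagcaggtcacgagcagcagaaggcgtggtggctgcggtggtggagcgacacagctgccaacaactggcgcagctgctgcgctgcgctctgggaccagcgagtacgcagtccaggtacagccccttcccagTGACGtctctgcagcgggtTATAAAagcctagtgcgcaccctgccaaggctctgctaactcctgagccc
Bdkrb1: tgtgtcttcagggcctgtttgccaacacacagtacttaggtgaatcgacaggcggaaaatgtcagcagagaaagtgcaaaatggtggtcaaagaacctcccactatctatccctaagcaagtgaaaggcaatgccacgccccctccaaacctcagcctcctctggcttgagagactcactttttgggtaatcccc
The Tacr1 window, of 250 bases, held 1 match to each and the Bdkrb1 window, of 195 bases, 0. TATAAA occurs in 14.3% and TGACG in 22.0% of 27457 rat promoter windows. Those are 300 bases long, and for both genes they run past the end of the stretch printed here. The shares are therefore not for windows of like length. These letters were chosen after the sequences had been seen. The sites of AP-1 (TGANTCA), the full cyclic AMP response element (TGACGTCA) and NF-kB were also searched on both strands. They had 0 matches in the 300-base windows of 9 receptors (Bdkrb2 not among them). Of all windows 7.33%, 1.91% and 7.60% held them.

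Of the other genes of the tachykinin system, a ligand and a receptor were called. Tac3, the precursor of neurokinin B, rose by 1.59 ± 0.26, or 3.00-fold (SE, n = 6 per group, adjusted p = 0.000864). Its values were 4.76 to 5.54 in sham bladders and 5.78 to 7.78 in denervated ones, with medians of 5.32 and 6.93. The groups did not overlap, and denervated replicate 2 was the lowest of the denervated arrays. All sham values and that lowest denervated value lay below the array medians of 5.82 to 5.90, so their signal over background is unknown. Tacr3, the NK3 receptor and preferred target of neurokinin B, fell by 0.63 ± 0.11 (adjusted p = 0.000884). It stood at 6.58 to 7.10 in sham and 6.06 to 6.44 in denervated arrays, again with no overlap. Tac1, which encodes substance P and neurokinin A, was among the dimmest genes of the array, with means of 2.88 and 2.92, and Tac4, the precursor of hemokinin, differed by 0.21 (adjusted p = 0.0792). Tac4 was called without sham replicate 6 (adjusted p = 0.0499) or denervated replicate 4 (0.0328). The changes of Tacr1 and Tacr3 differed from each other by 0.12, which an exact two-sided permutation test over the 924 splits of the arrays gave p = 0.643 (adjusted over 2 such pairs, 0.643).

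The kinin receptors B1 and B2 are encoded by neighbouring protein-coding genes on chromosome 6. Bdkrb2 is the constitutive receptor for bradykinin, and Bdkrb1, known as a gene induced by injury and inflammation, answers kinins that have lost their last residue. Bdkrb1 stood at 4.10 to 4.60 in sham bladders, with a median of 4.52, and at 4.51 to 5.08 in denervated ones, with a median of 4.73. In 4 denervated arrays it lay above all sham arrays, and in denervated replicates 1 and 2 (4.59 and 4.51) it lay within their range. It rose by 0.32 ± 0.11, or 1.25-fold (SE, n = 6 per group, adjusted p = 0.0460). All its values lay below the array medians of 5.82 to 5.90, so it was dim and its signal over background is unknown. The mean over the 9 macrophage markers, of which 8 rose, stood in the denervated arrays at 9.20 to 9.91, against 8.28 to 8.50 in sham arrays, and their part in the Bdkrb1 value was not tested.

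The Bdkrb1 call was close to the threshold. It was lost when any of 8 single arrays was left out: sham replicate 2 (adjusted p = 0.0993), 4 (0.0523), 5 (0.0983) or 6 (0.0658), or denervated replicate 3 (0.0934), 4 (0.0695), 5 (0.0909) or 6 (0.0637). It was kept without any of the other 4, and without denervated replicate 2 the difference was 0.36 (adjusted p = 0.0224). The difference itself stayed between 0.25 and 0.36 across the 12 omissions.

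Bdkrb2 did not follow it. Its values ran from 6.48 to 7.00 in sham bladders (median 6.74) and from 6.44 to 6.96 in denervated ones (median 6.63), so that the groups overlapped almost wholly. The difference was -0.11 ± 0.10 (adjusted p = 0.471), with a 95% interval from -0.33 to 0.11, which leaves room for a small change either way. With single arrays left out it lay between -0.17 (without denervated replicate 3) and -0.06 (without sham replicate 6) and was not called. The changes of Bdkrb1 and Bdkrb2 differed by 0.43, and an exact two-sided permutation test gave p = 0.00216, the smallest that 924 splits allow (adjusted over 2 pairs, 0.00432). That pair was set up after the values had been seen. The genes nearest to Bdkrb1 in pattern, by the root mean square distance between values taken from each gene's sham mean over the 12 arrays, were Tmem263 (distance 0.0993 log2 units), Farp2 (0.105) and Pelo (0.107). Their own differences were 0.29, 0.33 and 0.35. Kng1, a gene for kininogen, from which kinins are cut, was near the bottom of the array with means of 2.45 and 2.47. The other listed kininogen genes, Kng2, Kng1l1 and Kng2l1, were not measured.

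**Figure D2:**
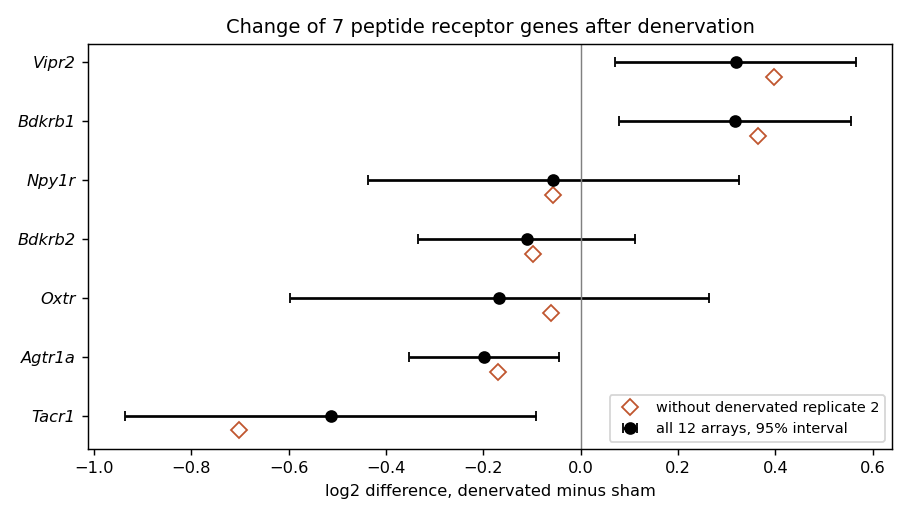
Log2 difference, denervated minus sham (horizontal axis), of the 7 receptor genes with its 95% interval from the limma fit to all 12 arrays (black), and the difference without denervated replicate 2 (open diamonds). Intervals of Bdkrb2, Oxtr and Npy1r span 0, and the diamond of Tacr1 lies at -0.70, further from 0 than the -0.51 over all arrays.

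Agtr1a encodes the main angiotensin II receptor, which contracts smooth muscle and drives growth and matrix production. It was the steadiest of the 7 genes, with SDs of 0.11 in sham and 0.12 in denervated arrays. Sham values ran from 8.04 to 8.32 (median 8.21) and denervated values from 7.86 to 8.16 (median 8.03). In 3 denervated arrays Agtr1a lay below all sham arrays and in the other 3 within their range. The difference was -0.20 ± 0.07 (adjusted p = 0.0536), just short of a call, with a 95% interval from -0.35 to -0.04. Omission of sham replicate 2 brought a call (-0.23, adjusted p = 0.0344), as did that of denervated replicate 1 (-0.23, 0.0366). Of its relatives, the second copy Agtr1b (-0.17, adjusted p = 0.328), which resembles Agtr1a so closely that probes may be shared, and Mas1 (-0.15, adjusted p = 0.153), the receptor of angiotensin 1-7, were not called. Agtr2, the second angiotensin receptor, stood at -0.41 (adjusted p = 0.256), at 6.19 in denervated replicate 2 but 4.40 to 5.48 in its 5 group mates. Without that array Agtr2 fell by 0.62 (adjusted p = 0.0182). Agt, the precursor, stood at -0.28 (adjusted p = 0.118) and was called without denervated replicate 1 (0.0189).

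Vipr2 encodes the VPAC2 receptor, which relaxes smooth muscle through cyclic AMP. It lay at 5.74 to 6.12 in sham bladders, with a median of 5.96, and at 5.86 to 6.56 in denervated ones, with a median of 6.26. Here 5 denervated arrays lay above all 6 sham arrays, and denervated replicate 2, at 5.86, lay among the sham values. For Tacr1 the same 5 arrays lay below all sham arrays, but denervated replicate 2 lay above them all. The Vipr2 difference was 0.32 ± 0.11 (SE, n = 6 per group, adjusted p = 0.0531), with a 95% interval from 0.07 to 0.57. Without denervated replicate 2 it rose by 0.40 (adjusted p = 0.00745), and it was called without sham replicate 4 as well (0.35, adjusted p = 0.0485). Its ligands Vip (-0.09, adjusted p = 0.271) and Adcyap1, which encodes PACAP (-0.06, adjusted p = 0.816), were dim and were not called. The PACAP receptor Adcyap1r1 stood at -0.17 (adjusted p = 0.405). Denervated replicate 2 had 6.61, its 5 group mates had 5.70 to 6.02, and without that array it fell by 0.29 (adjusted p = 0.0208).

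Oxtr, the oxytocin receptor, contracts uterine and other smooth muscle. Sham values ran from 6.46 to 7.20 (median 6.80). Denervated values spread more widely, from 6.11 in replicate 2 to 7.45 in replicate 5 (median 6.56), with 3 arrays below and 1 above all sham arrays. The difference of -0.17 ± 0.20 (adjusted p = 0.587) was smaller than that spread, the denervated SD being 0.48 against 0.27 in sham. Its size depended on single arrays. Omission of denervated replicate 2 gave -0.06 (adjusted p = 0.842), that of sham replicate 3 gave -0.09 (0.797) and that of denervated replicate 1 gave -0.10 (0.775), while omission of denervated replicate 5 gave -0.33 (0.142). Avpr1a, the related vasopressin receptor of smooth muscle, fell by 0.52 ± 0.11 (adjusted p = 0.00352). It lay at 8.40 to 9.05 in sham and 7.94 to 8.38 in denervated arrays, without overlap, denervated replicate 2 being the highest of the latter. Oxt itself stood at -0.05 (adjusted p = 0.775). Lnpep, the aminopeptidase that cleaves oxytocin and vasopressin, fell by 0.31 (adjusted p = 0.0190). In denervated replicate 2 it stood at 10.44, level with the highest sham array (10.43), while the 5 group mates of that array lay at 9.85 to 10.09.

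Npy1r encodes the Y1 receptor, through which neuropeptide Y of sympathetic nerves constricts vessels. Values of the groups overlapped throughout, from 5.15 to 5.94 in sham (median 5.59) and from 4.75 to 5.91 in denervated arrays (median 5.62). The difference of -0.06 ± 0.18 (adjusted p = 0.849) had a 95% interval from -0.44 to 0.32. The lowest value, 4.75, belonged to denervated replicate 1, and without it the difference was 0.10. Neuropeptide Y itself (Npy) differed by 0.17 (adjusted p = 0.371), and of the other Y receptors Npy2r (0.04), Npy4r (-0.01) and Npy5r (-0.05) were not called.

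Of the endothelin ligands and receptors only the ligands were measured. Edn1, the vasoconstrictor and growth factor endothelin-1, rose by 0.78 ± 0.24, or 1.72-fold (SE, n = 6 per group, adjusted p = 0.0239). It ranged from 5.95 to 6.61 in sham bladders and from 6.23 to 7.75 in denervated ones, with medians of 6.39 and 7.21. The lowest denervated value was that of replicate 2, and the other 5, from 6.73 upwards, lay above all sham arrays. Edn1 lost its call on omission of sham replicate 1 (adjusted p = 0.0555), denervated replicate 3 (0.0532) or denervated replicate 5 (0.0555). Edn2 (-0.18, adjusted p = 0.254) and Edn3 (-0.12, adjusted p = 0.322) were not called. The endothelin-converting enzymes Ece1 (0.14, adjusted p = 0.200) and Ece2 (0.17, adjusted p = 0.144) were not called either, though Ece2 was without denervated replicate 6 (0.0287). Of 7 endothelial markers 3 rose and 4 were not called, where 11.9% of all genes were called higher. The list mean lay at 8.22 to 8.32 in sham and 8.44 to 8.76 in denervated arrays. The part of these markers in the Edn1 value was not tested.

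**Figure D3:**
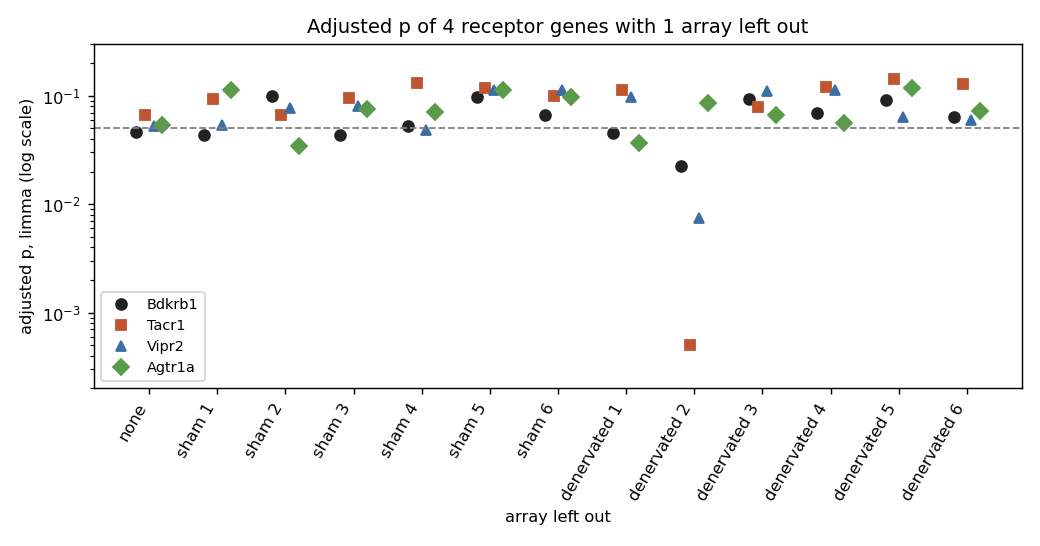
Adjusted p of the limma fit (vertical axis, log scale) for Bdkrb1, Tacr1, Vipr2 and Agtr1a with no array or each of the 12 arrays left out (horizontal axis), the dashed line marking 0.05. The lowest points are Tacr1 (0.000498) and Vipr2 (0.00745) without denervated replicate 2, while Bdkrb1 crosses the line with 8 of the 12 omissions.

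Without denervated replicate 2, then, 3 of the 7 receptors were called, Bdkrb1 and Vipr2 higher and Tacr1 lower, against 34.5% of all genes. The plot of adjusted p by left-out array shows that no other single omission brought more than 1 further receptor past the threshold.

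Genes that make, break down and relay the peptides were read beside the receptors. Of 21 measured ligands and precursors 2 rose, Tac3 and Edn1, 0 fell and 19 were not called, with a median difference of -0.04. At an unadjusted p under 0.05 there were 5. Over all genes 11.9% were called higher and 16.9% lower, and 38.9% passed unadjusted, for this list and those that follow. Of 11 measured sister receptors 0 rose and 2 fell, Tacr3 and Avpr1a, with a median of -0.15, and 4 fell without denervated replicate 2, where 20.2% of all genes fell. At an unadjusted p under 0.05 there were also 2 of the 11, both lower, and by the exact rank-sum test 0 rose and 2 fell. Of 15 enzymes that form peptides 2 rose and 0 fell, with 3 at an unadjusted p under 0.05. They were Furin, a protease that matures many precursors (0.35, adjusted p = 0.0211), and Ace, which makes angiotensin II and inactivates bradykinin (0.22, adjusted p = 0.0405). The call of Ace was lost without any of 7 single arrays: sham replicate 1 (adjusted p = 0.0873), 2 (0.0906) or 6 (0.0827), or denervated replicate 1 (0.0811), 2 (0.0654), 3 (0.0701) or 6 (0.0619).

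Of 15 measured peptide-degrading enzymes 3 rose and 3 fell, against 11.9% and 16.9% of all genes. Anpep, aminopeptidase N, which trims angiotensins and other small peptides and is also a surface protein of myeloid cells, rose by 1.45 ± 0.15 or 2.73-fold (adjusted p = 8.02e-05). It stood at 7.87 to 8.18 in sham and 8.68 to 9.79 in denervated arrays, and its lowest denervated value was that of replicate 2. Prcp, which removes the last residue of angiotensin II, rose by 0.58 ± 0.10 (adjusted p = 0.00103). Prep rose by 0.26 (adjusted p = 0.0435), while Thop1 (-0.21, adjusted p = 0.0137), Ide (-0.19, adjusted p = 0.0458) and Lnpep fell. The call of Prep was lost on omission of sham replicates 1, 2, 3 or 6 and of denervated replicates 1, 3, 4 or 5 (adjusted p of up to 0.0971). That of Ide was lost without any single array other than denervated replicate 1 or 2 (up to 0.101). Mme, neprilysin, the main enzyme that degrades tachykinins, differed by 0.18 (adjusted p = 0.553).

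**Figure D4:**
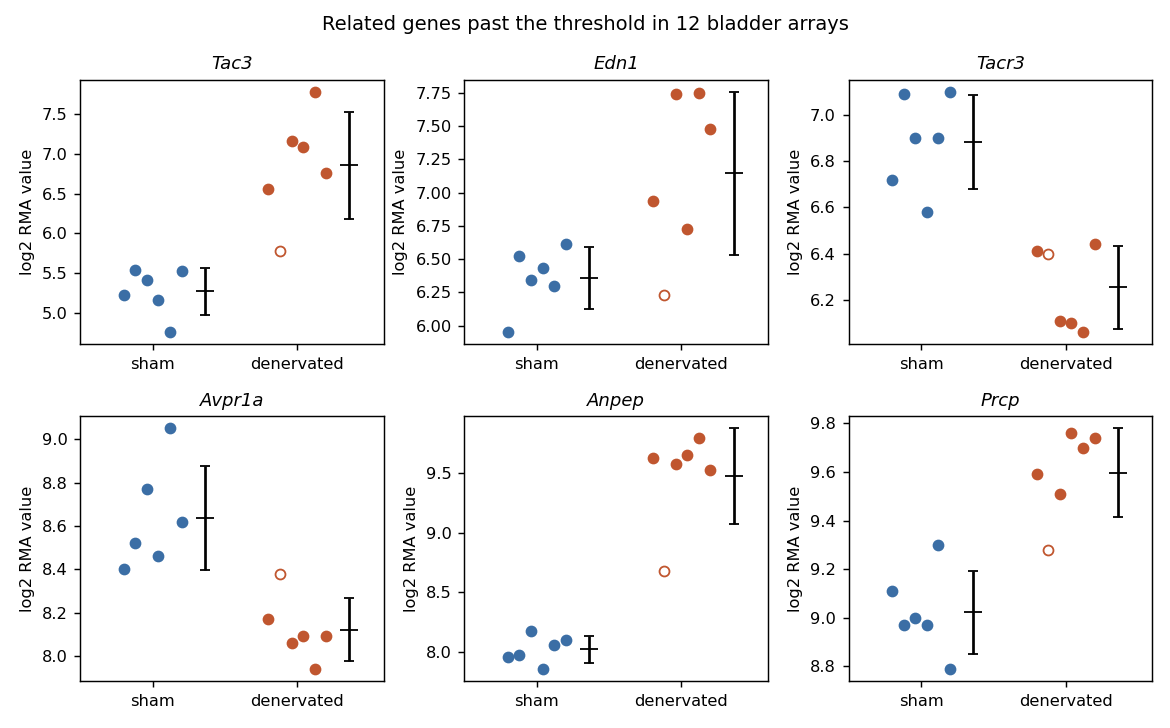
Log2 RMA values (vertical axis, each panel with its own range) of 6 called genes related to the receptors in 6 sham and 6 denervated arrays, with the mean ± SD beside each group and denervated replicate 2 as an open circle. Tac3, Tacr3, Avpr1a and Anpep did not overlap between groups, while in Edn1 and Prcp the open circle lies within the sham range.

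Downstream of the receptors, 10 of 33 measured genes of G proteins, phospholipase C, adenylyl cyclase and their effectors rose and 7 fell, with a median of -0.04, against 11.9% and 16.9% of all genes. Without denervated replicate 2, 10 fell, where 20.2% of all genes fell, and by the exact rank-sum test 3 fell, where 13.2% did. Adenylyl cyclases make cyclic AMP. Adcy1 fell by 1.42 ± 0.32 (adjusted p = 0.00523) and Adcy5 by 0.85 ± 0.17 (adjusted p = 0.00248). Adcy7 rose by 1.16 ± 0.17 (adjusted p = 0.000349) and Adcy4 by 0.77 ± 0.13 (adjusted p = 0.00115). In Adcy1 the sham arrays lay at 8.57 to 9.39, denervated replicate 2 at 9.06 and the other 5 denervated arrays at 6.74 to 7.88. The stimulatory G protein subunit Gnas rose by 0.77 and Plcb2, a phospholipase C isoform of blood cells, by 0.56 (adjusted p = 0.00801 and 0.000100). Gnas was dim in sham arrays, at 5.26 to 6.17 against array medians of 5.82 to 5.90, and its signal over background is unknown. Of 14 genes for receptor desensitization and accessory proteins 5 rose and 0 fell, with a median of 0.19 and 7 at an unadjusted p under 0.05, against 38.9% of all genes. Ramp2 and Ramp3 are among the 5 and are counted again among the receptors for other peptides. Arrb2, an arrestin that uncouples and internalises activated receptors, rose by 0.69 ± 0.12 (adjusted p = 0.000865), and the receptor kinases Grk6 and Grk4 rose by 0.30 and 0.22 (adjusted p = 0.00879 and 0.0439). The call of Grk4 was lost without any single array other than sham replicates 1 and 3 and denervated replicate 1 (adjusted p of up to 0.0979).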

How the data were processed

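The authors' deposited file gives log2 values for 36685 probe sets on 12 arrays. RMA (background correction, quantile normalization between arrays and summary of probes) was run in Affymetrix Expression Console 1.4.1.46, per the submitters' processing notes. Their annotation and genome build were not given in the sources used here. Groups and replicate numbers came from the sample titles.

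The platform's gene table gave 18511 probe sets a single gene. Where a gene had several, the brightest over the 12 arrays was used, leaving 18166 genes. All were fitted together in limma 3.58.1 (R 4.3.3; lmFit and eBayes, denervated minus sham, two-sided), adjusting over all genes by Benjamini-Hochberg, with no filter on dim genes. The fit was tested on simulated data. The receptors and the related lists were chosen with earlier results of these data known. The genes named were the receptors, their ligands, up to 6 called members of a related list with the largest change, and the 3 genes closest in pattern to a called receptor. Other members of the lists and the pairs of receptors compared were chosen after their values were seen. Array number limits the precision. Receptor protein sequences were not analysed here. Alternatives were a further quantile normalization, median centring, filters on dim genes, other eBayes settings, weights per array, an exact rank-sum test, other treatments of probe sets, the replicate number as a block and omission of each array.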

Additional observations from a re-analysis of the deposited data

Results flagged for a closer look

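Npy1r in denervated replicate 1 stood at 4.75, against 5.52 to 5.91 in the other 5 denervated arrays. The gap to the nearest array was 0.667 of the group's whole range, beyond the 95% limit of Dixon's test for 6 samples. Of 38 groups examined, over the 7 receptors and 12 ligands, it was the only one with such a value, and chance alone marks about 1 group in 20.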

How the results depend on the processing

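After median centring Bdkrb1 was not called (0.30, adjusted p = 0.0606) and Agtr1a was (-0.22, 0.0292), leaving 0 receptors higher, 1 lower and 1 peptide-forming enzyme higher. Of all genes 11.1% were then called higher and 19.0% lower. Testing only genes above the median gene left out Bdkrb1, Vipr2, Npy1r, Bdkrb2 and Oxtr. Neither receptor with a positive difference could therefore be called under this filter. Tacr1 (-0.51, 0.0445) and Agtr1a (-0.20, 0.0282), the only receptors it kept, were both called lower. Of the related genes it kept, 1 sister receptor was lower, and 2 other peptide receptors were higher and 3 lower. Without the dimmest 25% of genes, Bdkrb1 among them, Agtr1a (-0.20, 0.0367) and Vipr2 (0.32, 0.0396) were called, 1 receptor lower. With trend and robust eBayes settings Agtr1a was called (-0.20, 0.0427), 1 receptor lower. Array weights, 0.322 for denervated replicate 2, called Tacr1 (-0.60, 0.00476) and Vipr2 (0.39, 0.00898), with 2 receptors higher and 1 lower. The exact rank-sum test did not call Bdkrb1 (0.32, 0.116) and gave 0 receptors, 1 ligand and 0 peptide-forming enzymes higher, and 1 degrading enzyme and 3 G protein pathway genes lower. That test called 9.1% of all genes higher and 13.2% lower. Over all probe sets Bdkrb1 was not called (0.32, 0.0843), leaving 0 receptors and 1 peptide-forming enzyme higher. With the replicate block Vipr2 was called (0.32, 0.0424), giving 2 receptors higher, and 1 peptide-forming enzyme was higher. Shares of all genes called under the filters, other eBayes settings, array weights, all probe sets and the replicate block are not given here. Replicate numbers are shared by the groups without a stated pairing, and same-numbered arrays correlated at -0.112 to 0.101 in their deviations from the group means.

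Leaving out each array in turn gave differences of -0.70 to -0.43 for Tacr1, 0.25 to 0.36 for Bdkrb1, -0.23 to -0.17 for Agtr1a, 0.26 to 0.40 for Vipr2, -0.33 to -0.06 for Oxtr, -0.17 to -0.06 for Bdkrb2 and -0.14 to 0.10 for Npy1r. Npy1r turned positive without sham replicate 6 (0.016) or denervated replicate 1 (0.098). Receptors called higher numbered 0 to 2 and lower 0 to 1, ligands higher 1 to 3 and lower 0 to 1, peptide-forming enzymes higher 1 to 2 and sister receptors lower 2 to 4. Bdkrb2, Oxtr and Npy1r were called under none of the alternatives in which they were tested. The table holds no detection calls, so dim genes such as Bdkrb1, Tac1, Vip and Kng1 cannot be told from background.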

Other observations

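Of 36 measured receptors for other peptides and their accessory proteins, 5 rose, 6 fell and 25 were not called, with a median of -0.03. Over all genes 11.9% were called higher and 16.9% lower. The receptor activity modifying protein Ramp3, a partner of the receptors for adrenomedullin, rose by 1.34 ± 0.30 (adjusted p = 0.00516), with 5.54 to 5.84 in sham and 5.93 to 8.42 in denervated arrays and the lowest denervated value in replicate 2. The secretin receptor gene Sctr rose by 1.24 (adjusted p = 0.00878) and Aplnr, the apelin receptor of endothelium, by 1.05 (adjusted p = 5.11e-05). Nmur2, a neuromedin U receptor, fell by 0.82 (adjusted p = 0.00731), the galanin receptor Galr2 by 0.55 (adjusted p = 0.00200) and Calcrl, the receptor shared by calcitonin gene-related peptide and adrenomedullin, by 0.41 (adjusted p = 0.0107). All 6 kept their call with each single array left out. Sctr was dim in sham arrays (4.61 to 5.06) and Nmur2 in denervated arrays (4.67 to 5.58). The array medians were 5.82 to 5.90, so the signal over background is unknown there.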
